A study of Homo sapiens with 9 samples.

Results

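The genes described here were the replication-dependent histone genes of the A431 line, taken by their older names: every symbol that began HIST1 to HIST4 followed by H1, H2A, H2B, H3 or H4. Of 58051 genes counted, 89 matched, and 14 whose symbols ended in P or PS and a number were left out as pseudogenes, which left 75 members. Another 5 of the 75 (HIST2H2BA, HIST2H2BB, HIST2H2BC, HIST2H2BD and HIST3H2BA) were annotated as pseudogenes although their symbols did not say so, and 70 were coding genes. By class there were 6 H1, 17 H2A, 23 H2B, 14 H3 and 15 H4 members.

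The RNA came from A431, a human epidermoid carcinoma line that carries an endogenous mutant p53. A431 parental cells were the unmodified line and kept mutant p53. A431 Ctrl cells were a stable line that had received an empty GFP CRISPR vector and also kept mutant p53, and A431 p53 KO cells were a stable line made with a GFP CRISPR construct against p53. All 3 lines grew in DMEM with serum, passed through single colonies, and were harvested 48 h after settling in plates, without any other agent, and each gave 3 poly(A)-selected, strand-specific libraries. The labels did not say whether the 3 libraries of a line came from separate clones or cultures, so the p-values measure only the spread between these libraries.

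Replication-dependent histone genes supply the proteins that package new DNA. Their transcription rises in S phase through NPAT, and their mRNAs usually have no introns and end in a conserved stem-loop, bound by SLBP and cut by the U7 snRNP, in place of a poly(A) tail. Some of these genes also give polyadenylated transcripts, by reading past the stem-loop to a downstream poly(A) site, and it is mainly tailed RNA that a poly(A) library collects. A change in a bulk library can come from fewer cells that hold an RNA or from less RNA per cell, and these cannot be told apart.

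The 3′ ends of the members were read from the genome sequence. The names used for the choice belong to a known gene family, so this describes the members and does not test the label. A stem-loop of the histone type lay within 150 bases after the stop codon in 70 of the 70 coding members, against 73 of all 20046 coding genes (0.364%), and began 26 to 71 bases after the stop. The sequences below are those of the members with most counts in each class, and of HIST1H2AG, one of the 2 members lower in A431 p53 KO cells than in both other lines. Capitals mark the arms of the stem, which flank a loop of 4 bases, and 5 bases are shown on each side (GRCh38, 5′ to 3′ on the gene's strand). In order, the stem-loops lay at chr6:26055744-26055759 (minus strand), chr6:26124669-26124684 (plus), chr6:27133515-27133530 (plus), chr6:27146366-27146381 (minus), chr6:27810516-27810531 (plus) and chr6:26285131-26285146 (minus).
HIST1H1C: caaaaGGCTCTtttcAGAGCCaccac
HIST1H2AC: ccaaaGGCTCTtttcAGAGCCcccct
HIST1H2AG: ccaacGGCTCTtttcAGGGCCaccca
HIST1H2BK: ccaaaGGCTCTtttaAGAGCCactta
HIST1H3H: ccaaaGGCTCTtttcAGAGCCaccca
HIST1H4H: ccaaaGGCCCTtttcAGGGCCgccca

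The stem sorted the classes. All 15 H4 members had GGCCCT as the first arm, and 54 of the 55 coding members of the other classes had GGCTCT. In HIST1H2AG the second arm was AGGGCC, so that 1 base pair of the stem was not a Watson-Crick pair, and the arms failed to match fully in 2 of the 70 members. The poly(A) signal AATAAA stood within 1000 bases after the stop codon in 31 of the 70 coding members (44.3%), against 61.8% of all coding genes, and within 100 bases in 5. HIST1H1C had it 59 bases after the stop and HIST1H2BD 68 bases after it.

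Promoters were read as RefSeq windows (GRCh38.p14) from 250 bases before to 50 bases after the start, and 65 of the 75 members had at least 1 window, 4 of them 2. The octamer ATTTGCAT, on either strand, was found in 1.77% of 35116 promoter windows. It was in a window of 11 of 16 H2A members, 14 of 18 H2B members, 1 of 12 H3 members, 0 of 6 H1 members and 0 of 13 H4 members. CCAAT, on either strand, was in a window of 55 of the 65 members (34.6% of all windows), and TATAAA, on either strand, of 44 (11.5% of all windows). The windows are not independent, because many H2A and H2B genes stand back to back and share the bases between them, and the only H3 match, in the second window of HIST1H3D, lies in the same bases as the window of HIST1H2AD. The windows of HIST1H2BK, the member with most counts (chr6:27146806-27147105, minus strand), and of HIST2H2BE, which was lower in A431 p53 KO cells than in both other lines (chr1:149886633-149886932, minus strand), are given with the octamer in capitals.
HIST1H2BK: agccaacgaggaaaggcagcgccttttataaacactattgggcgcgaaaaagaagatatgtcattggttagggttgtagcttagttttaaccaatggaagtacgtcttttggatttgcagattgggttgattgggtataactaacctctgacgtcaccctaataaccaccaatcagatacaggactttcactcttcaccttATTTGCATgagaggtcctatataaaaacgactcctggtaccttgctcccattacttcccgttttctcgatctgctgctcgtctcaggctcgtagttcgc
HIST2H2BE: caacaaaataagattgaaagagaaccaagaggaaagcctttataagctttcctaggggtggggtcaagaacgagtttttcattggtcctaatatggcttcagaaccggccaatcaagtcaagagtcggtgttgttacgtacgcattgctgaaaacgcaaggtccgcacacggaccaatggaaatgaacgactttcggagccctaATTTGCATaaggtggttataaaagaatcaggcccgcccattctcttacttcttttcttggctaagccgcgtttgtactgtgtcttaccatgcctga

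The libraries held 19783778 to 29840452 counts in genes. Levels are given as counts per 1000000 counts of TMM-scaled library size (CPM). A431 Ctrl replicate 1 stood apart, with a correlation of 0.986 to 0.988 with the other libraries of its line across genes, where all other pairs within a line reached 0.993 to 0.996. In that library genes with 1000 to under 2000 exon bases lay 0.26 above their mean over all libraries on the log2 scale (median) and genes with 4000 or more lay 0.12 below (median -0.12). Counts of members called are therefore also given without it. Epithelial markers of the line were expressed (6 of 7 passed the filter on low counts). They summed to 15700 to 18907 CPM in A431 parental, 10037 to 12577 in A431 Ctrl and 14418 to 15211 in A431 p53 KO libraries. Of the 6 tested 1 was called higher and 2 lower in A431 Ctrl than in A431 parental cells (10.6% and 9.69% of all genes). Markers of other cell types were low. The leukocyte markers summed to at most 0.342 CPM in a library, with PTPRC and CD3E at 0 in all 9 and a few counts of CD14. Of 6 fibroblast markers COL3A1, DCN and LUM were at 0 in all 9 libraries and COL1A1 alone passed the filter, at 4.18 ± 0.232 CPM in A431 parental, 3.25 ± 0.559 in A431 Ctrl and 2.91 ± 0.596 in A431 p53 KO cells (SD, n = 3), and was called in no comparison. The 3 endothelial markers, none of them at 0 throughout, summed to 0.383 to 0.646 CPM in A431 parental, 0.816 to 1.16 in A431 Ctrl and 0.403 to 0.532 in A431 p53 KO libraries. The one that passed the filter, PECAM1, had 1 to 13 counts a library and was called higher in A431 Ctrl than in A431 parental cells (log2 fold change 1.68, SE 0.45, adjusted p = 0.0250). The part of the endothelial markers in the values below was not tested.

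Most of the histone genes gave few reads. Of the 75 members 14 had 0 counts in every library and 23 had at most 3 counts in every library. The filter on low counts was passed by 32, which are the members tested. The 43 others had at most 70 counts over the 9 libraries together, and summed to between 63 and 101 counts a library. They were left out of the test, so no difference between lines is reported for them. Without the filter 61 members were tested. Of these, 18 were called higher in A431 Ctrl than in A431 parental cells, 17 of them also called with the filter. Over all libraries the members held 86011 counts, 0.0272% to 0.0628% of a library. HIST1H2BK, HIST1H1C and HIST1H2AC held 71.4% of these counts and the 12 members with the highest mean CPM 93.3%. By class, H2B members held 53.4%, H2A members 21.3%, H1 members 19.9%, H3 members 2.72% and H4 members 2.65%, and those tested numbered 14, 7, 3, 4 and 4.

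**Figure D1:**
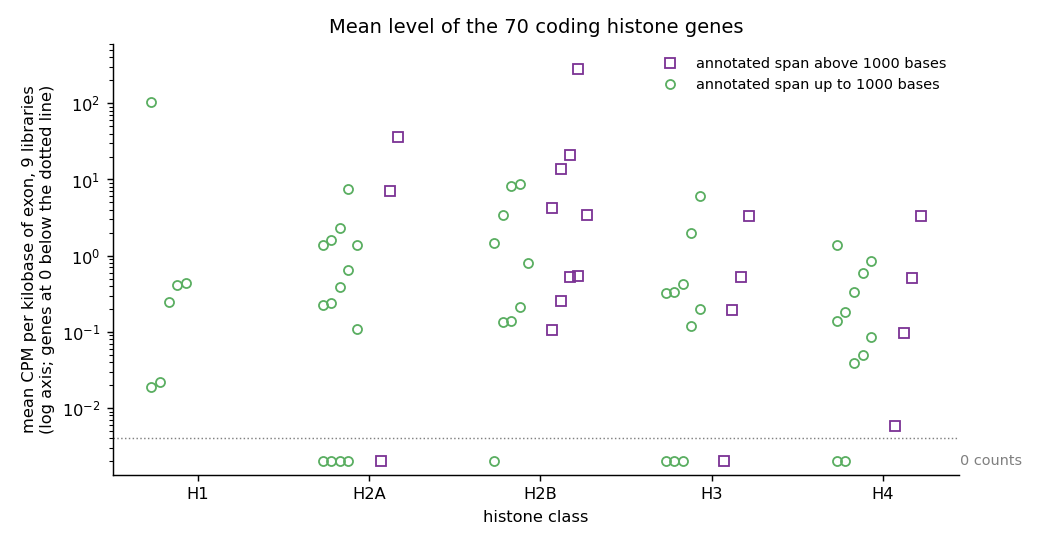
Mean level of each coding histone gene over the 9 libraries (CPM per kilobase of exon, log axis) by histone class. Squares are the 20 genes whose longest annotated span (GENCODE or RefSeq) exceeds 1000 bases and circles the 50 shorter ones. Genes at 0 counts are drawn below the dotted line. The squares have a median of 0.540 and the circles of 0.243, with much overlap, and the highest H1 gene, HIST1H1C at 104, is a circle.

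Most of the counts fell on genes with a long span in at least 1 of 2 annotations. In 20 coding members the longest GENCODE or RefSeq gene model spanned more than 1000 bases, and these held 73.5% of all member counts with a median level of 1.88 CPM. Of their 63253 counts HIST1H2BK held 30859 and HIST1H2AC 13657. HIST1H2BK counts as long only by its RefSeq model of 8566 bases, its GENCODE model having 495. HIST1H2AC counts as long only by its GENCODE model of 14972 bases, its RefSeq model having 519. By either annotation alone the shorter genes held most of the counts, so the share depends on taking the longer model. The 50 shorter members held 26.4%, with a median of 0.128 CPM. Per kilobase of exon the medians were 0.540 and 0.243 CPM. A longer gene model also gives more room for reads, and whether the longer transcripts supplied the reads was not tested, since the table holds 1 count a gene. HIST1H1C, with a model of 731 bases, was the second member by counts.

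Some members cannot be told apart by their reads. Of all windows of 75 bases, the read length, none was unique in the genome for 6 members in near-identical copies (HIST2H2AA3, HIST2H2AA4, HIST2H3A, HIST2H3C, HIST2H4A and HIST2H4B), and 4 of these had 0 counts. Under 50% of windows were unique in 14 members, these 6 included. Of the 14, 2 were tested, HIST1H2AI (38.7%) and HIST2H2BF (39.2%), and neither was called in any comparison. In HIST1H2BK 61% of windows were unique. Among the members with most counts, HIST1H2AC shares exons with another gene on its strand, and HIST1H2BC and HIST1H4H overlap genes on the other strand. Their counts are uncertain to that extent. Among coding members with fewer counts, HIST1H2AD, HIST1H3D, HIST1H2AM, HIST1H3J and HIST3H2BB share exons with another gene on their strand. HIST1H2AD, HIST1H3D and HIST1H2AM had 0 counts in every library, and whether the shared exons set these values was not tested.

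The 3 lines did not hold these genes at the same level. Summed over all 75 members, the A431 parental libraries had 276, 308 and 270 CPM (285 ± 20.4, SD, n = 3). The A431 Ctrl libraries had 633, 556 and 514 CPM (568 ± 60.6), and the A431 p53 KO libraries had 285, 306 and 332 CPM (308 ± 23.7). All 3 A431 Ctrl libraries lay above all 6 others, while the other lines overlapped. The ratio of A431 Ctrl to A431 parental was 1.99 (1.88 without A431 Ctrl replicate 1, 1.92 without HIST1H2BK), and that of A431 p53 KO to A431 parental was 1.08.

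**Figure D2:**
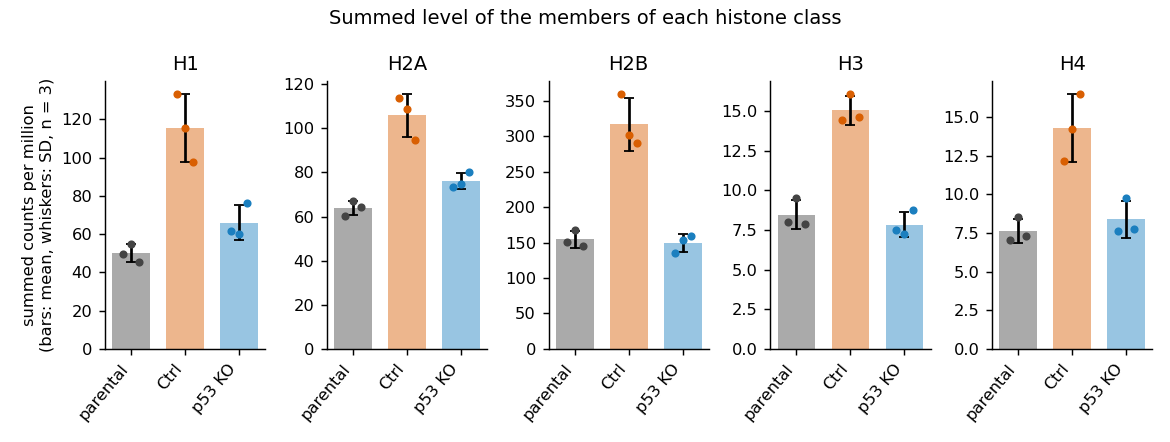
Summed level of the members of each histone class (CPM), with a panel and an axis of its own for each class. Bars are means of 3 libraries, whiskers SD and points single libraries. In all 5 classes the A431 Ctrl libraries lie above every library of the other lines.

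A431 Ctrl libraries were the highest in each class. Summed H2B levels were 155 ± 11.9 CPM in A431 parental, 317 ± 37.4 in A431 Ctrl and 149 ± 12.9 in A431 p53 KO cells (SD, n = 3). H1 levels were 49.96 ± 4.77, 116 ± 17.7 and 66.0 ± 8.98 CPM, and H2A levels were 63.8 ± 3.24, 106 ± 9.81 and 76.2 ± 3.67 CPM. In H2A, the 3 A431 p53 KO libraries (73.6, 74.5 and 80.4 CPM) also lay above the 3 A431 parental ones (60.4, 66.9 and 64.2 CPM). H3 levels were 8.47 ± 0.892, 15.04 ± 0.912 and 7.83 ± 0.793 CPM, and H4 levels 7.64 ± 0.795, 14.3 ± 2.19 and 8.38 ± 1.18 CPM. The H1 sum is almost wholly HIST1H1C: without it the ratio of A431 Ctrl to A431 parental fell from 2.31 to 1.42, and that of A431 p53 KO to A431 parental from 1.32 to 0.883.

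The first comparison set the empty-vector line against the unmodified one, both with mutant p53, and so asked how far 2 control lines differ. The quasi-likelihood test of edgeR was run on 14513 genes and its p-values adjusted by Benjamini and Hochberg's method over all of them. Among the members 17 of the 32 tested were higher in A431 Ctrl than in A431 parental cells and 0 were lower at an adjusted p of at most 0.05. The background was 10.6% of all genes called higher and 9.69% called lower, 20.3% in either direction. None of the members passed a log2 fold change of 1.5 in this comparison (1.94% of all genes), nor in the ones of A431 p53 KO against A431 Ctrl (3.29%) and against A431 parental cells (1.95%). The members' median log2 fold change was 0.70, against 0.00 over all genes, and the 32 values ran from 0.13 to 1.40. The filter can pass a member through the line where it is high. HIST1H1B (0.71) did so, with 8, 15 and 12 counts in A431 Ctrl libraries, 6 to 8 in A431 parental and 2 to 9 in A431 p53 KO libraries. This touches both comparisons with A431 Ctrl cells. DESeq2 called 17 higher and 0 lower, and 19 members had an unadjusted p under 0.05. Without A431 Ctrl replicate 1 the count was 16. It was 16 of 23 members where every library had to hold at least 10 counts. Among genes with fewer than 1000 exon bases the median log2 fold change was 0.12, and with each library's trend against gene length removed, a setting added after the data were seen, 17 members were called with a median of 0.58 over the 32 tested.

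**Figure D3:**
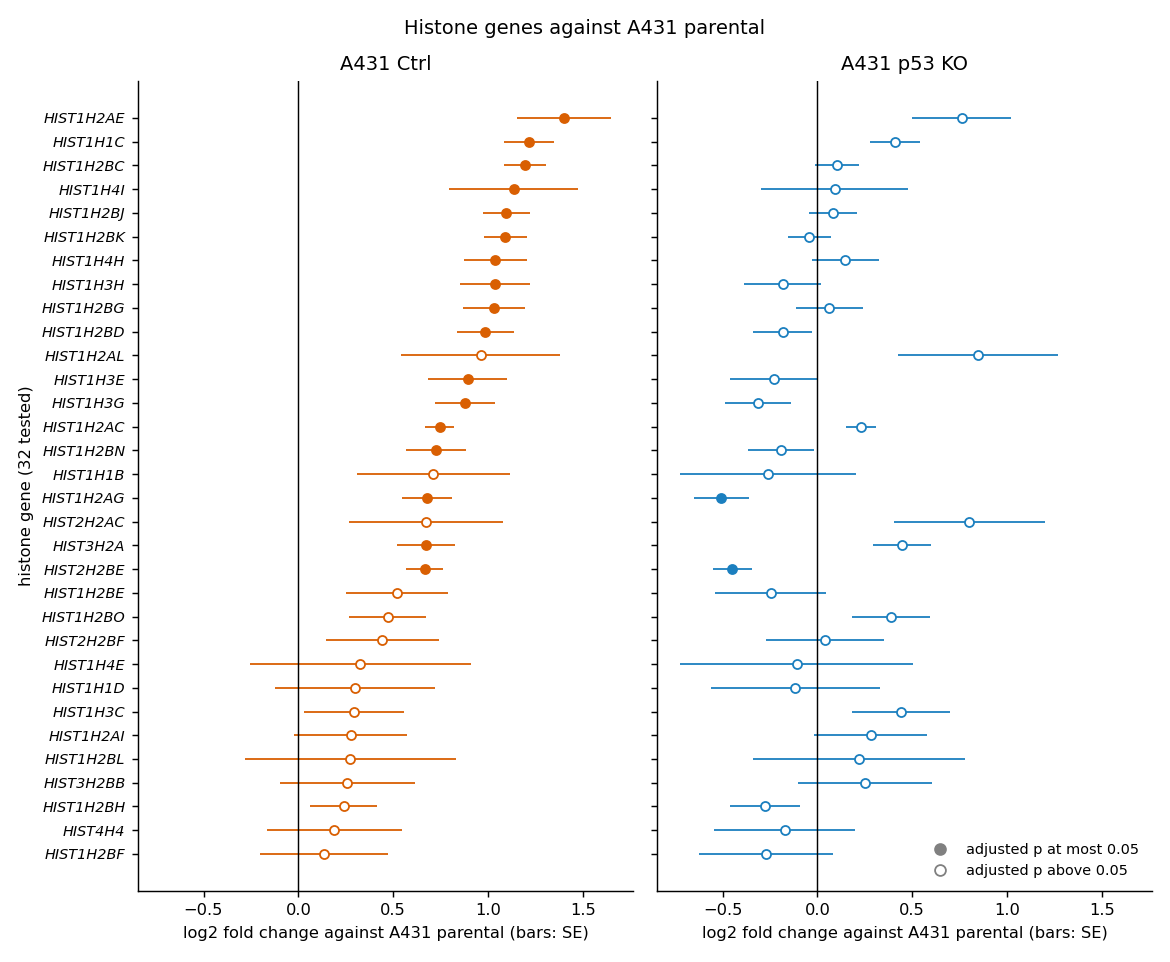
Log2 fold change against A431 parental cells (x axis, bars are SE) for the 32 members tested (y axis, in the order of the A431 Ctrl values), in A431 Ctrl cells on the left and A431 p53 KO cells on the right. Filled points passed an adjusted p of 0.05: 17 on the left, all to the right of 0, and 2 on the right, both to the left of 0.

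The linker histone HIST1H1C (H1.2), which binds the DNA that enters and leaves the nucleosome, had 48.7, 54.2 and 44.5 CPM in the A431 parental libraries. It had 132, 114 and 96.4 CPM in A431 Ctrl and 60.7, 59.5 and 75.6 CPM in A431 p53 KO cells. The lines did not overlap. HIST1H1C rose 2.32-fold from A431 parental to A431 Ctrl cells (log2 fold change 1.22, SE 0.13, adjusted p = 1.48e-04). The other tested H1 members, HIST1H1D and HIST1H1B, had 77 and 74 counts in all and were called in no comparison.

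Among H2A genes, which code for the partner of H2B in the nucleosome, HIST1H2AC led with 45.5, 49.3 and 48.0 CPM in A431 parental libraries. A431 Ctrl libraries had 85.4, 81.5 and 72.4 CPM and A431 p53 KO libraries 54.4, 56.2 and 57.1 CPM. The lines did not overlap, with A431 Ctrl highest and A431 parental lowest. HIST1H2AC rose 1.68-fold in A431 Ctrl against A431 parental cells (log2 fold change 0.74, SE 0.08, adjusted p = 1.26e-04). HIST3H2A, on chromosome 1, was 1.59-fold higher (0.67, SE 0.15, adjusted p = 0.0120), a call that was lost without A431 parental replicate 1 (adjusted p = 0.0603). HIST1H2AE had the largest fitted change of the tested members at 1.40 (SE 0.25, adjusted p = 0.00308), from 0.673 ± 0.167 to 1.75 ± 0.196 CPM (SD, n = 3), and HIST1H2AG was the fourth H2A member called.

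H2B genes supplied 7 of the 17 calls. HIST1H2BK had 97.9, 111 and 95.9 CPM in A431 parental libraries, 253, 207 and 192 CPM in A431 Ctrl libraries and 88.2, 101 and 108 CPM in A431 p53 KO libraries. The A431 Ctrl values stood apart and the others overlapped. HIST1H2BK rose 2.13-fold in A431 Ctrl against A431 parental cells (log2 fold change 1.09, SE 0.12, adjusted p = 1.20e-04). HIST1H2BC rose 2.29-fold, from 8.31 ± 0.714 to 19.0 ± 2.31 CPM (adjusted p = 5.21e-05). HIST1H2BJ (2.14-fold), HIST1H2BG (2.05-fold), HIST1H2BD (1.98-fold), HIST1H2BN (1.66-fold) and HIST2H2BE (1.59-fold) were the others. HIST1H2BH, the twelfth member by level, was not called, at 3.74 ± 0.467 and 4.402 ± 0.297 CPM (log2 fold change 0.24, SE 0.18, adjusted p = 0.340).

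H3 and H4 genes code for the tetramer at the centre of the nucleosome. HIST1H3H had 2.68, 3.69 and 3.18 CPM in A431 parental, 6.07, 8.25 and 5.19 CPM in A431 Ctrl and 2.65, 2.81 and 2.98 CPM in A431 p53 KO libraries, and rose 2.05-fold in A431 Ctrl against A431 parental cells (adjusted p = 0.00340). HIST1H3G (1.84-fold) and HIST1H3E (1.86-fold) rose as well, while HIST1H3C was not called (log2 fold change 0.29, SE 0.26). HIST1H4H had 4.32, 6.23 and 5.03 CPM in A431 parental, 8.46, 10.96 and 12.5 CPM in A431 Ctrl and 5.40, 6.35 and 5.51 CPM in A431 p53 KO libraries, and rose 2.06-fold (adjusted p = 0.00180). HIST1H4I was called at far lower levels, 0.379 ± 0.0382 and 0.853 ± 0.231 CPM (adjusted p = 0.0384).

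**Figure D4:**
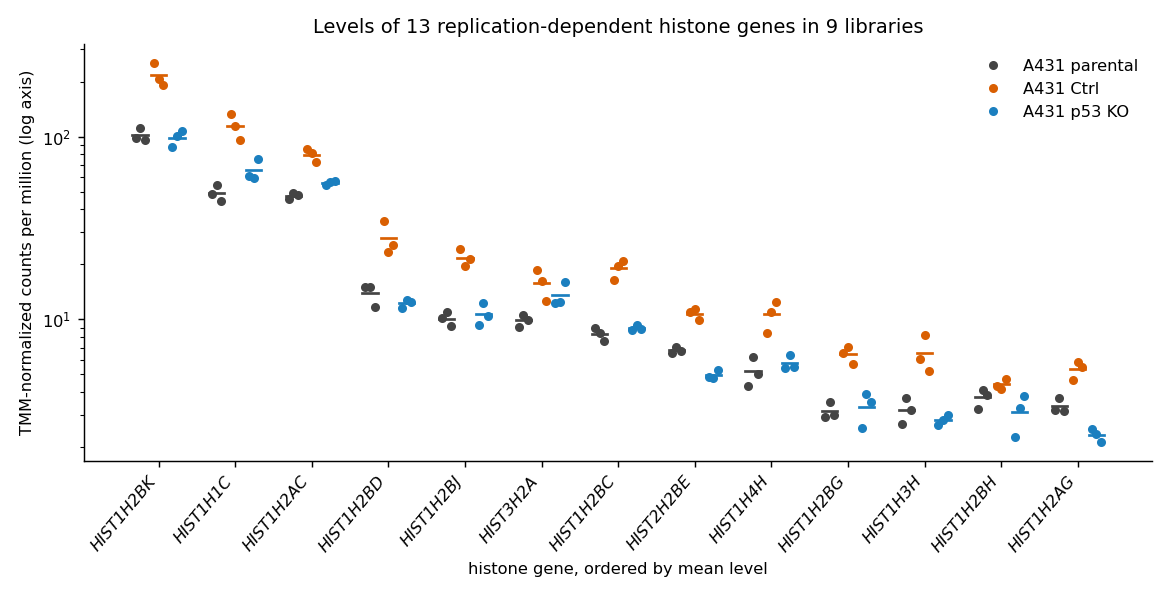
Level of the 13 named histone genes (CPM, log axis) in each library, in the order of their mean level. Points are libraries and short lines the means of 3. The A431 Ctrl points lie above all others in every gene but HIST3H2A, and the A431 p53 KO points lie below all others in HIST2H2BE and HIST1H2AG.

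The second comparison set A431 p53 KO cells against the A431 Ctrl cells that had been through the same CRISPR procedure. Of the 32 members 15 were lower in A431 p53 KO cells and 0 were higher, with a background of 14.2% of genes called lower and 15% called higher (29.2% in all). The members' median log2 fold change was -0.70, against 0.01 over all genes, and the values ran from -1.22 to 0.15. DESeq2 called 16 lower and 0 higher, and 19 members had an unadjusted p under 0.05. Without A431 Ctrl replicate 1 there were 17 calls. This comparison shares the A431 Ctrl libraries with the first, so the values of both are only set side by side. HIST1H2BK was 2.20-fold lower in A431 p53 KO than in A431 Ctrl cells (log2 fold change -1.13, SE 0.12, adjusted p = 3.92e-05) and HIST1H1C 1.75-fold lower (-0.81, SE 0.13, adjusted p = 8.28e-04). HIST1H3H fell by 1.22 on the log2 scale, HIST1H2BD by 1.17, HIST1H2BC by 1.09, HIST1H2BJ by 1.02, HIST1H2BG by 0.97 and HIST1H4H by 0.89. HIST1H2AC fell less, by 0.51 (SE 0.08, adjusted p = 5.88e-04). HIST3H2A had a log2 fold change of -0.23 (SE 0.15, adjusted p = 0.287) and HIST1H2BH of -0.52 (SE 0.18, adjusted p = 0.0538), and neither was called.

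The third comparison set A431 p53 KO against A431 parental cells, and here the median over the members stood near 0, though not in every class. Of the 32 tested 2 were lower and 0 were higher, with a background of 8.36% of genes called lower and 9.77% called higher (18.1% in all). The median log2 fold change was 0.05, against 0.01 over all genes, with values from -0.51 to 0.85. The class medians were -0.12 (H1), 0.45 (H2A), -0.0008 (H2B), -0.21 (H3) and -0.01 (H4). Of the 7 H2A members tested 6 had values above 0, and the 1 called was lower. HIST1H2AE, among the 6, had 0.76 (SE 0.26, adjusted p = 0.0701) and was not called. DESeq2 called 2 lower and 2 higher, and 6 members had an unadjusted p under 0.05. HIST1H2BK had a log2 fold change of -0.04 (SE 0.11, adjusted p = 0.833), HIST1H2BJ of 0.08 (SE 0.13), HIST1H2BC of 0.10 (SE 0.11) and HIST1H2BG of 0.06 (SE 0.18). The values of HIST1H1C (0.41, SE 0.13, adjusted p = 0.0547), HIST1H2AC (0.23, SE 0.08, adjusted p = 0.0672) and HIST3H2A (0.45, SE 0.15, adjusted p = 0.0685) missed the threshold on the high side. HIST1H1C and HIST3H2A passed it with DESeq2 (adjusted p = 0.0298 and 0.0421), and all 3 passed when A431 Ctrl replicate 1 was left out of the shared fit, which then made 6 calls, and when A431 Ctrl replicate 3 was left out, which made 5.

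Of the 32 members tested 2, HIST2H2BE and HIST1H2AG, were lower in A431 p53 KO cells than in both other lines, and 0 were higher than in both. The shares over all genes tested were 5.25% lower and 6.46% higher, so the count of 2 is near the background. HIST2H2BE (H2B, chr1:149884459-149886682, 1 exon) had 6.54, 7.04 and 6.74 CPM in A431 parental, 10.9, 11.4 and 9.95 CPM in A431 Ctrl and 4.86, 4.75 and 5.31 CPM in A431 p53 KO libraries. The lines did not overlap. It fell by 0.45 on the log2 scale against A431 parental (SE 0.10, adjusted p = 0.0123) and by 1.12 against A431 Ctrl cells (SE 0.10, adjusted p = 1.73e-05). HIST1H2AG (H2A, chr6:27133043-27133535, 1 exon), whose stem-loop and its unmatched arm are shown above, had 3.18, 3.69 and 3.14 CPM in A431 parental, 4.64, 5.83 and 5.49 CPM in A431 Ctrl and 2.52, 2.36 and 2.13 CPM in A431 p53 KO libraries, again without overlap. It fell by 0.51 against A431 parental (SE 0.15, adjusted p = 0.0357) and by 1.19 against A431 Ctrl cells (SE 0.14, adjusted p = 1.05e-04). The falls against A431 parental were near the threshold: both calls were lost without A431 parental replicate 2, A431 p53 KO replicate 1 or A431 p53 KO replicate 2 (0 calls), and that of HIST1H2AG also without A431 parental replicate 1, A431 parental replicate 3 or A431 p53 KO replicate 3 (1 call). HIST1H3G was the third of the 32 tested members with all 3 A431 p53 KO libraries below the 6 others, a count near the share of 10.1% of all genes tested. It was not called against A431 parental cells (log2 fold change -0.31, SE 0.17, adjusted p = 0.245).

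The members lie in clusters, 55 on chromosome 6, 19 on chromosome 1 and 1 on chromosome 12. In the largest, chr6:25723397-26285638, 9 of 15 tested members were higher in A431 Ctrl than in A431 parental cells, with a median log2 fold change of 0.88. In chr6:27125897-27147562, which holds HIST1H2BK, HIST1H2BJ and HIST1H2AG, 4 of 4 were higher (median 1.10), and in chr6:27807479-27893891, 2 of 7 (median 0.71). On chromosome 1, 1 of 3 tested members of chr1:149782689-149887965 (HIST2H2BE) and 1 of 2 of chr1:228424845-228464594 (HIST3H2A) were higher. Other genes within 1 Mb were counted against the background of 10.6% higher and 9.69% lower. The 21, 24 and 24 tested beside the chromosome 6 clusters had medians of 0.04, -0.05 and -0.09, with 6, 5 and 2 called higher and 1, 2 and 3 called lower. The stretches searched around these 3 clusters overlap, so a gene can count in more than 1 of them. Beside the 2 chromosome 1 clusters with tested members there were 27 and 17, with medians of -0.05 and 0.05, 3 and 1 called higher and 3 and 3 called lower. Beside the member on chromosome 12 there were 11, with a median of 0.15, 4 called higher and 1 lower. The 2 members on chromosome 1 that stand alone were not tested, and the 10 and 4 genes beside them had medians of -0.22 and -0.36, with 0 called higher and 2 and 0 called lower.

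Genes that stand back to back differed in level. In 12 pairs an H2A and an H2B gene faced away from each other with 303 to 381 bases between their coding starts. Per kilobase of exon H2B was the higher in 7 pairs and H2A in 4, and both were at 0 in 1. The 7 include the pairs of HIST1H2AD and HIST1H2AM, which had 0 counts and share exons with another gene on their strand. Whether those values reflect the level of the 2 genes was not tested. Among pairs with both above 0 the widest gap was between HIST1H2BK, with 30859 counts over 9 libraries, and HIST1H2AH on the other side of the same promoter region, with 25 counts (281 and 0.236 CPM per kilobase of exon). HIST1H2AC and HIST1H2BC had 13657 and 2731 counts (36.6 and 4.199 CPM per kilobase), and HIST1H2AG and HIST1H2BJ had 828 and 3154 (7.43 and 13.5). In the A431 Ctrl against A431 parental comparison the 2 genes of a pair had log2 fold changes of 0.74 and 1.19 for HIST1H2AC and HIST1H2BC. The values were 0.68 and 1.10 for HIST1H2AG and HIST1H2BJ, and 1.40 and 1.03 for HIST1H2AE and HIST1H2BG. For HIST2H2AC and HIST2H2BE they were 0.67 and 0.67, the first not called (SE 0.41, adjusted p = 0.243). They were 0.67 and 0.26 for HIST3H2A and HIST3H2BB, the second not called, and 0.28 and 0.27 for HIST1H2AI and HIST1H2BL, neither called. These 6 pairs are the ones with both genes tested. In HIST1H2AI 38.7% and in HIST1H2AJ 35.8% of windows of 75 bases were unique, so the levels of these 2 H2A genes are uncertain. The per-kilobase values rest on GENCODE 44 exons, which may differ from those counted: HIST1H2BK has 495 exon bases there but a RefSeq gene of 8566 bases.

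**Figure D5:**
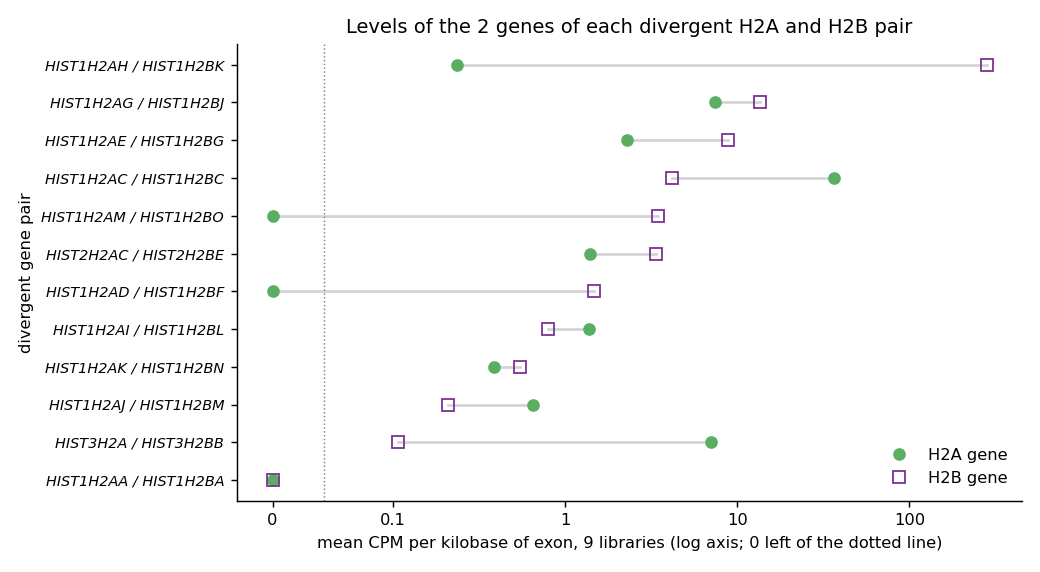
Mean level over 9 libraries (x axis, CPM per kilobase of exon, log scale, 0 left of the dotted line) of the H2A gene (filled circle) and the H2B gene (open square) of each of the 12 divergent pairs. Among pairs with both genes above 0 the symbols lie farthest apart for HIST1H2AH and HIST1H2BK, at 0.236 and 281.

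Genes that make and handle histone mRNA were read against the background of the first comparison, 10.6% of all genes higher and 9.69% lower. Of 7 genes that act in histone gene transcription 0 were called by edgeR or DESeq2 in that comparison (2 at an unadjusted p under 0.05, median log2 fold change -0.28), and NPAT, the coactivator of these genes, had a value of -0.33 (SE 0.21, adjusted p = 0.253). Of 16 genes of 3′ processing 2 were higher (SNRPB and SNRPD3) and 1 was lower (ZNF473, a U7 snRNP partner), 3 of 16 against 20.3% of all genes. In A431 p53 KO against A431 Ctrl cells 6 of these 16 were higher and 1 was lower, with a background of 15% higher and 14.2% lower. SLBP, the stem-loop binding protein, had 95 ± 2.39, 94.3 ± 1.00 and 108 ± 5.88 CPM in A431 parental, A431 Ctrl and A431 p53 KO cells (SD, n = 3), with an adjusted p of 0.922 for the first comparison, and was higher in A431 p53 KO than in A431 Ctrl cells (log2 fold change 0.20, SE 0.07, adjusted p = 0.0435). Against both other lines, CDK2, which phosphorylates NPAT, was lower in A431 p53 KO cells, at 89.3 ± 2.35 against 108 ± 1.86 and 112 ± 0.727 CPM, and CSTF2T, a relative of the cleavage factor CSTF2, was higher. Of 19 histone chaperones 1 was higher in A431 Ctrl than in A431 parental cells (HIRA) and 1 was lower (NAP1L1), and CABIN1, of the HIRA complex, was lower in A431 p53 KO cells than in both other lines.

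Histone genes outside the set chosen by name, most of which give ordinary tailed mRNAs, were compared in the same way. H2AFX, which gives both a stem-loop and a tailed mRNA, was among them and was called in no comparison. Of 15 listed 10 were tested, and 4 were higher in A431 Ctrl than in A431 parental cells and 0 lower (10.6% and 9.69% of all genes), with a median log2 fold change of 0.19: H2AFJ (0.46, adjusted p = 0.0197), H1FX (0.43, adjusted p = 0.0433), H2AFZ (0.33, adjusted p = 0.0227) and H3F3A (0.26, adjusted p = 0.0432). H3F3B, which codes for H3.3, was higher in A431 p53 KO cells than in both other lines, at 524 ± 34.4 against 412 ± 13.4 and 447 ± 30.9 CPM.

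Genes of the cell cycle had medians near 0 between the 2 control lines. Of 32 genes of S phase and replication 4 were higher in A431 Ctrl than in A431 parental cells (MCM2, MCM5, CDC45 and RFC4) and 1 was lower (TYMS), against 10.6% and 9.69% of all genes, with a median of 0.01 and no value above 0.36. Of 16 genes of G2 and mitosis 1 was higher (CCNB2) and 0 were lower (median -0.04). In A431 p53 KO against A431 Ctrl cells 9 of the 32 S phase genes were higher and 4 lower, with a median of 0.10. Of the 16 genes of G2 and mitosis 2 were higher and 1 lower (median 0.13). The background was 15% higher and 14.2% lower. In A431 p53 KO cells MCM7, GINS4, RFC2 and RFC5 were higher than in both other lines and RFC4 was lower, and CDK1 and KIF11 were higher. Over all genes 6.46% were higher and 5.25% lower than in both. Of 22 RNAs listed that normally carry no poly(A) tail 3 were tested, and RMRP, RN7SK, RN7SL1 and SCARNA2 were at 0 counts in every library. Their summed levels were 12.002 to 14.03 CPM in A431 parental, 7.60 to 10.96 in A431 Ctrl and 10.2 to 13.5 in A431 p53 KO libraries. Most of this was SNORD17, a small nucleolar RNA, with 106 to 275 counts a library and a mean of 10.5, 7.51 and 8.52 CPM in the 3 lines in that order. Between A431 Ctrl and A431 parental cells edgeR called 0 of the 3, with 2 at an unadjusted p under 0.05, and DESeq2 called 1, SNORD17, as lower. RN7SL2 and SNORA73B were higher in A431 p53 KO than in A431 Ctrl cells (adjusted p = 0.0321 and 0.0403). The share of tailless RNA in a library was not measured otherwise, and its part in the histone values was not tested.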

How the data were processed

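Poly(A) RNA from 9 libraries of A431 cells (3 parental, 3 Ctrl, 3 p53 KO) was sequenced by the authors as paired-end reads of 75 bases from a strand-specific kit. The deposited values were raw gene counts, made by the authors with STAR 2.5.1b on GRCh38 and featureCounts on Ensembl 85. How multi-mapping reads and strand were treated is not given in the sources used here. Members were matched to GENCODE 44 (69 by gene ID, 6 by symbol through RefSeq synonyms).

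Genes passing filterByExpr (minimum count 10; 14513 genes) were fitted in edgeR 4.0.16 (R 4.3.3) with TMM scaling, a mean per line and the quasi-likelihood test over all 9 libraries. Benjamini-Hochberg adjusted p-values over all genes of at most 0.05 were called. SE is the log2 fold change over the root of the F statistic. CPM are counts per 1000000 counts of TMM-scaled library size. The fits were tested on simulated data. Alternatives were DESeq2 1.42.0, its size factors, other filters, only the 2 lines compared, a replicate block, a fold threshold, each library left out, and, added after the data were seen, removal of each library's trend of level against exon bases. Replicate numbers did not pair the libraries (correlation of same-numbered deviations -0.35 to 0.04).

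Named genes were members called with a log2 fold change past 1.5 in size (0 genes), members called in 1 direction against both controls, the 12 members with the highest mean CPM, and up to 5 genes of each list called in 1 direction against both controls. Other genes were named after their values were seen. The members and lists were chosen with earlier results of these data known. The level of the targeted gene is not reported here.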

Additional observations from a re-analysis of the deposited data

How the results depend on the processing

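Counts of 17 members (A431 Ctrl against A431 parental) and 15 members (A431 p53 KO against A431 Ctrl) stayed within 1.5 times under all alternatives but one: at a log2 fold change past 1.5 in size each of the 3 comparisons, and the count against both controls, gave 0. The A431 p53 KO against A431 parental count of 2 was the least steady. It was 4 with DESeq2, 4 without a filter, 4 with the gene length trend removed, 6 with only the 2 lines compared, and 0 to 6 when 1 library was left out. The replicate block gave 1 there and 1 against both controls (HIST2H2BE in each) and left the other 2 counts at 17 and 15. The count against both controls was 0 to 2 when 1 library was left out. The median log2 fold change of A431 p53 KO against A431 Ctrl (-0.70) was -0.40 without a filter, where 61 members were tested, and -0.89 where each library had to hold 10 counts or more, with 23 tested. Without the member with most counts, the H1 ratio of A431 Ctrl to A431 parental was 1.42 and of A431 p53 KO to A431 parental 0.883, and the H4 ratio of A431 Ctrl to A431 parental 1.502. Otherwise the cause of a change was not tested.

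Of the values of the 13 named members under these alternatives none that was called changed sign. Low counts limit the 43 members not tested, and 3 libraries a line limit the rest. Depth need not be the only limit on the 43. They include the 6 members with no unique window of 75 bases. They also include HIST1H2AD, HIST1H3D and HIST1H2AM, which had 0 counts and share exons with another gene on their strand. The libraries were also poly(A)-selected. A431 Ctrl replicate 1 stood apart, and each genotype or vector was studied in 1 line, so line and genotype cannot be told apart.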
